A study of Mus with 14 samples.

Results

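The cells described here are 3524 Hlf-positive cells of mouse bone marrow, 5.03% of the 70038 cells kept from 14 single-cell libraries. A kept cell held at least 1000 UMIs (unique molecular identifiers, each the tag of 1 captured RNA molecule) and 500 genes, with under 10% of its UMIs from mitochondrial genes. A member had at least 1 UMI of Hlf, at least 1 UMI of Mecom or Procr, at most 1 UMI each of Elane and Pf4, and none of Klf1, F13a1, Dntt and Ms4a2. Hlf and Mecom encode transcription factors of blood stem cells and Procr their surface receptor EPCR, while the other 6 genes mark neutrophil, megakaryocyte, erythroid, monocyte, lymphoid and basophil or mast cell fates. The cells were thus chosen by their UMIs of these 9 genes, whose levels are given as description only and are tested nowhere.

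The study asked how loss of either TNF receptor changes blood formation by Dnmt3a-mutant cells. Each library came from the marrow of 1 mouse that carried a secondary transplant. Donor cells (CD45.2+) were first grafted with an equal number of CD45.1+ competitor cells, the primary recipients were given poly(I:C) once, and marrow cells from them were passed to aged, irradiated CD45.1+ hosts, which were harvested at week 20. Lineage-negative, Kit-positive, CD45.2+ cells were sorted, so host and competitor cells were left out by the sort. The 4 groups were MxCre (3 mice), Dnmt3a (4), Dnmt3a;Tnfr1KO (3) and Dnmt3a;Tnfr2KO (4). MxCre is the control, with Cre recombinase under the interferon-inducible Mx1 promoter, which poly(I:C) switches on. The labels name the mutant allele only as Dnmt3a and do not say whether the Dnmt3a groups carry the same Cre, and poly(I:C) is described without exception for any group. The mice are labelled as biological replicates, but nothing ties them to particular primary recipients. Some may therefore have had the same donor, and the p-values measure only the spread between these mice.

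Hematopoietic stem cells sit at the top of blood formation. They divide rarely, renew themselves and give rise to multipotent progenitors that commit to megakaryocyte, erythroid, myeloid or lymphoid fates, and part of the stem cell pool already carries megakaryocyte transcripts. Dnmt3a encodes a DNA methyltransferase whose loss favours stem cell renewal over differentiation, and mutations in it are the most frequent cause of clonal hematopoiesis. TNF acts on stem cells through 2 receptors, TNFR1 (Tnfrsf1a), which carries a death domain, and TNFR2 (Tnfrsf1b), which does not.

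The members held 57745010 UMIs in all and 1112586 (Dnmt3a;Tnfr2KO mouse 3) to 10959909 (MxCre mouse 3) per mouse. Their median depth per mouse ran from 9970.5 to 25064 UMIs and their median mitochondrial share from 2.78% to 4.68%. Of their barcodes, 67 also occurred among the kept cells of another library and 2 were members in 2 libraries. Doublet calls numbered 42 among the 3524 members, and these cells were kept. Dnmt3a mouse 1 stood apart because 26.9% of its barcodes were kept, the lowest share of the 14 libraries, and Dnmt3a mouse 4 because its members were deeper than its other cells, at medians of 25064 and 11040.5 UMIs. MxCre mouse 2 and Dnmt3a mouse 4 also carried the most RNA of mature cells in their members. The summed level of 10 mature granulocyte markers, led by S100a8 and S100a9, was 516, 4153.5 and 629 CPM (UMI counts normalised to the total of the mouse) in the MxCre mice, 25.2, 12.6, 18.7 and 1519 in Dnmt3a, 41.7 to 148 in Dnmt3a;Tnfr1KO and 12.6 to 1165 in Dnmt3a;Tnfr2KO, against 431 to 30160 in the other cells of the same libraries. The summed level of 11 late erythroid markers, mostly globin genes, was 276 to 952 CPM in MxCre, 68.5, 107 and 88.8 in 3 Dnmt3a mice and 3175 in Dnmt3a mouse 4. T and NK cell markers summed to at most 28 CPM over the 14 mice and endothelial and stromal markers to 1.03 to 27.01 CPM, with Gzma, Cd8a, Ncr1, Vtn and Col3a1 at 0 in every mouse. The part of this RNA in the results below was not tested, apart from the alternative counts without these libraries.

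Some stem cell markers that the rule did not use went the same way as those it did, and others did not. In all 14 mice Hlf, Mecom, Procr, Ly6a, Ctla2a and Gimap6 were higher in the members than in the other kept cells. Median ratios over the 14 mice were 10.9 for Hlf (range 6.93 to 21.4), 15 for Mecom (6.62 to 42.4) and 23.7 for Procr (14.4 to 31.0), which the rule fixed. They were 8.36 (4.90 to 12.8) for Ly6a, which encodes the surface antigen Sca-1, 5.14 (2.58 to 12.8) for Ctla2a and 6.71 (2.34 to 10.6) for the small GTPase gene Gimap6. Slamf1, which encodes the stem cell surface receptor CD150, was less clear: at 5000 UMIs per cell it was found in a higher share of members than of other kept cells in 11 of 14 mice, but in 1.98% against 3.58% in MxCre mouse 1, 2.60% against 3.69% in Dnmt3a mouse 1 and 1.01% against 3.93% in Dnmt3a mouse 2. Vwf, which encodes von Willebrand factor, was found in a higher share of members in 4 of 14 mice. Cd48, a surface protein that the most primitive stem cells lack, was at a pooled 163 CPM in members and 144 CPM in other kept cells, but its direction differed between mice. At 5000 UMIs per cell it was found in a lower share of members than of other kept cells in every MxCre mouse (46.0% against 48.0%, 28.9% against 35.5% and 23.5% against 37.5%). The same held in Dnmt3a;Tnfr1KO mouse 1 and Dnmt3a;Tnfr2KO mouse 1. In all the other mice, among them every Dnmt3a mouse, the share of members was higher. Cd34, which the most primitive stem cells also lack, was at a pooled 346.5 CPM in members and 164.7 CPM in other kept cells. Its share at 5000 UMIs per cell was higher in members in every mouse. The proliferation gene Mki67 differed in direction, at 50.6% of members against 72.7% in Dnmt3a mouse 1 and 52.2% against 46.7% in Dnmt3a;Tnfr2KO mouse 3. Its shares thus did not mark the members as cells that divide less. The label is borne out by only part of its markers, as measured against other cells that are mostly committed progenitors. Since the same counts sorted the cells, these values describe the label and carry no test.

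**Figure D1:**
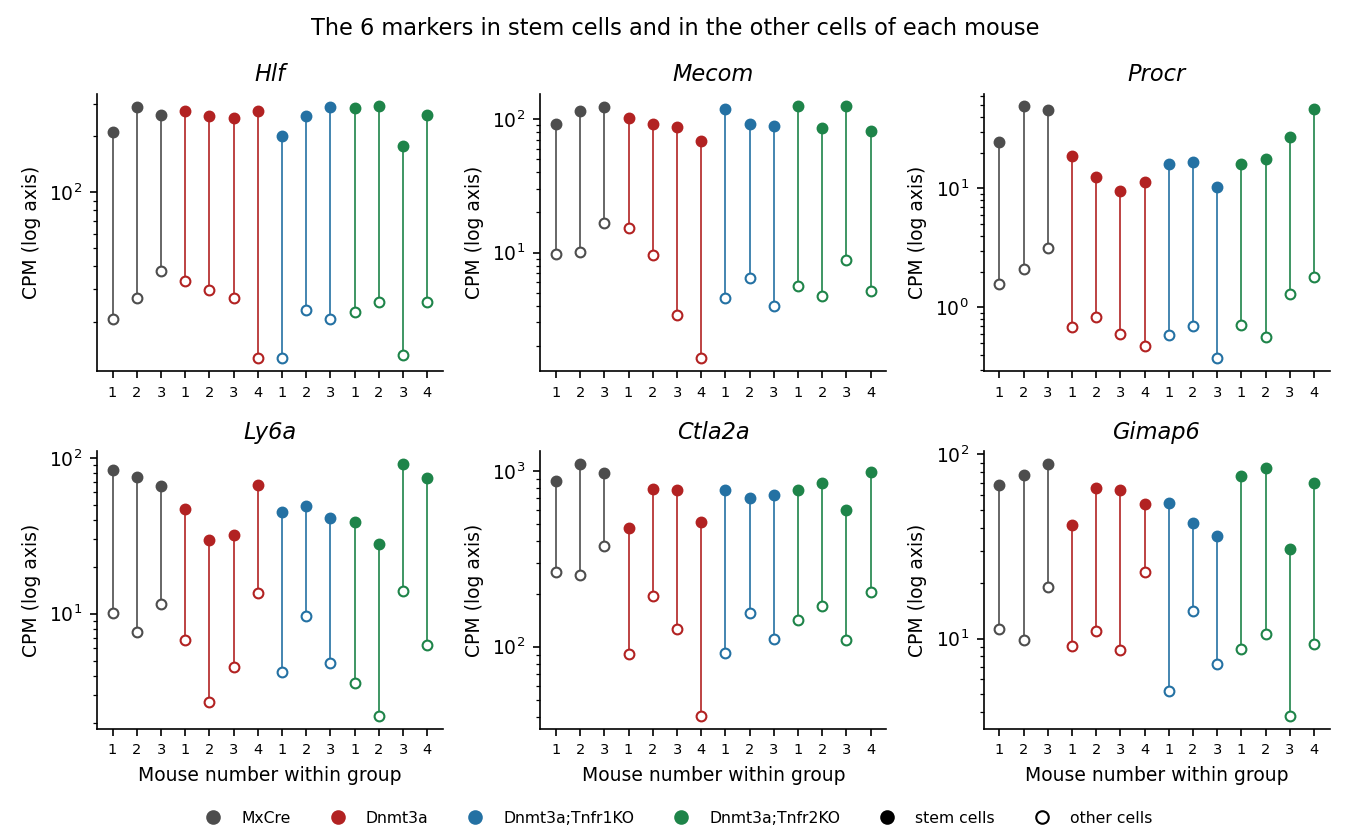
Level of the 6 stem cell markers in each mouse, in CPM on a log axis, with filled points for the Hlf-positive stem cells and open points for all other kept cells of the same library, coloured by group. The filled points lie above the open points in 14 of 14 mice for every marker. Hlf, Mecom and Procr were part of the selection and Ly6a, Ctla2a and Gimap6 were not.

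At the edge of the rule, 798 members had exactly 1 Hlf UMI and 2726 had at least 2, and 1661 had exactly 1 UMI of Mecom and Procr together. Just outside it lay 837 cells that met every other condition with no Hlf UMI and 2951 with no UMI of Mecom or Procr. A further 3841 cells had Hlf and Mecom or Procr but failed a condition on the other 6 genes. They numbered 437, 204 and 413 in the MxCre mice, beside 456, 237 and 800 members. In the Dnmt3a mice they numbered 469, 290, 262 and 105, beside 80, 199, 203 and 58 members. In the other mice they numbered 115 to 387, beside 96 to 325. The part of these 6 genes in the share of members was not tested. Pooled over mice, the members held 30.6 CPM of the self-renewal regulator Mllt3. The cells without Hlf held 17.7 CPM of Mllt3, and those without Mecom and Procr held 17.4. Both kinds of neighbour also carried the markers of the label. Ly6a was 56.2 CPM in the members, 41.6 in the cells without Hlf and 24.2 in those without Mecom and Procr. In the same order Ctla2a was 841.8, 707.5 and 701.4 CPM and Gimap6 68.9, 36.8 and 44.1 CPM. Mpo, the myeloperoxidase gene of granulocyte precursors, ran the other way, at 312.6 CPM in the members against 549.4 and 655.8 CPM in these neighbours and 4313.5 CPM in all other kept cells. All other kept cells held 12.1 CPM of Mllt3, so for Mllt3 and Mpo the neighbours lay between the members and the other kept cells. Pooled counts cannot tell a gradient from a mix of cell types.

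Among themselves the members were not uniform. Mecom alone carried 2444 of them, Procr alone 363, and 717 held both. The share with both was 24.6%, 32.5% and 29.3% in the MxCre mice and 23.8%, 15.6%, 4.93% and 12.1% in Dnmt3a. It was 11.5%, 20.9% and 12.6% in Dnmt3a;Tnfr1KO and 9.35%, 15.1%, 9.62% and 21.1% in Dnmt3a;Tnfr2KO. Each of the 3 MxCre mice was above all 11 mice of the other groups in this share, which is computed from genes of the rule and is not tested.

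Members picked on all their UMIs were thinned to 5000 UMIs each, so the depth of the read-out was equal but that of the selection was not. Before thinning, the median depth of members averaged 14620 UMIs over the MxCre mice, 20755 in Dnmt3a, 17734 in Dnmt3a;Tnfr1KO and 13044 in Dnmt3a;Tnfr2KO. Cd48 encodes a surface protein of multipotent progenitors that stem cells lack. Its UMIs were found in 32.8% ± 11.7 (SD) of MxCre members (n = 3), 55.4% ± 7.76 in Dnmt3a (n = 4), 51.6% ± 9.39 in Dnmt3a;Tnfr1KO (n = 3) and 50.8% ± 7.95 in Dnmt3a;Tnfr2KO (n = 4). Flt3, the receptor of lymphoid-primed progenitors, was found in 9.95% ± 1.44, 16.9% ± 4.92, 17.4% ± 3.31 and 15.8% ± 3.003 of the members in the same order, against 2.14% to 5.15% per mouse of cells with at least 2 Elane UMIs. Cells with at least 2 Elane UMIs held Cd48 in 42.5% to 56.2% per mouse. No cell type that should lack Cd48 was measured, and the part of free RNA in its shares was not tested. Il7r, the lymphoid interleukin 7 receptor, was at 0 in the thinned members of every mouse. These shares are descriptions, and the tests below use summed UMIs.

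The mean share of members among the sorted cells was lower in the Dnmt3a genotypes, a difference that passed the test by a narrow margin. Thinning to 5000 UMIs left out shallower cells, and unequally so. It left out 1831 of 5680 kept cells in Dnmt3a mouse 4, 1410 of 6487 in Dnmt3a;Tnfr1KO mouse 1 and 175 to 266 per MxCre mouse. Of the cells that remained, the MxCre mice had 3.21%, 5.33% and 10.1% in the rule and the Dnmt3a mice 3.70%, 3.23%, 1.85% and 0.727%. The Dnmt3a;Tnfr1KO mice had 1.04%, 2.82% and 1.56%, and the Dnmt3a;Tnfr2KO mice 2.35%, 2.71%, 0.805% and 2.40%. Dnmt3a mice 1 and 2 were above MxCre mouse 1, so the groups overlapped, while MxCre mice 2 and 3 were above all others. The exact (Clopper-Pearson) 95% binomial interval was 0.484% to 1.05% in the lowest mouse and 9.24% to 11.1% in the highest, and it covers counting error only. Without thinning, the means were 10.99% ± 5.52 in MxCre and 3.97% ± 2.55, 3.69% ± 2.46 and 3.95% ± 1.66 in the 3 Dnmt3a genotypes.

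**Figure D2:**
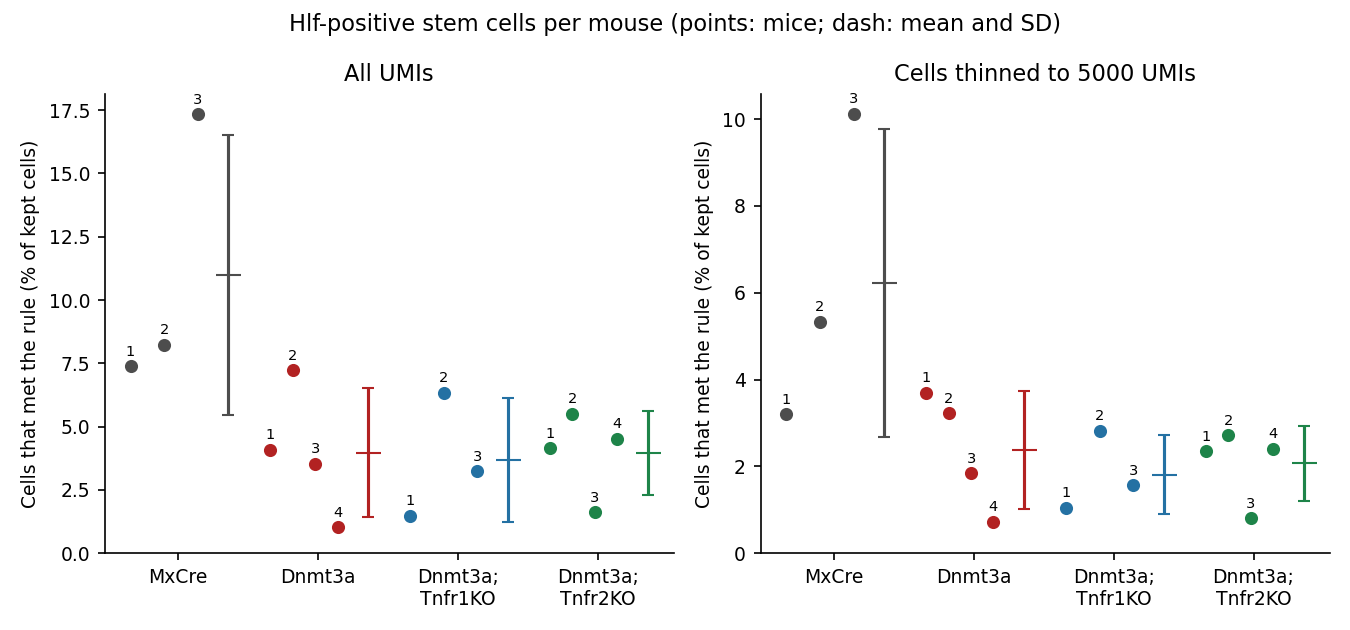
Share of kept cells that met the Hlf rule in each mouse, in percent, from all UMIs (left) and after thinning each cell to 5000 UMIs, with shallower cells left out (right). Points are mice, and dashes with bars are group means with their SD. The thinned MxCre mice lie between 3.21% and 10.1% and the 11 mice with Dnmt3a between 0.727% and 3.70%.

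Over all 11 mice with Dnmt3a the thinned share was 2.11% ± 0.996 (SD), against 6.22% ± 3.54 in the 3 MxCre mice, a difference of -4.11 percentage points. The exact two-sided permutation test gave p = 0.00824, or 0.0412 after Benjamini-Hochberg adjustment over the 5 comparisons made. For Dnmt3a alone the difference was -3.84 points with an exact permutation p = 0.0857 (adjusted 0.214), where 4 mice against 3 cannot go below 0.0286. The groups labelled as receptor knockouts differed in share from Dnmt3a by less than the spread between mice. The difference was -0.567 points for Dnmt3a;Tnfr1KO against Dnmt3a (exact permutation p = 0.543) and -0.308 for Dnmt3a;Tnfr2KO (exact permutation p = 0.714). Without MxCre mouse 3 the difference was -2.16 points (adjusted exact permutation p = 0.192), without MxCre mouse 2 it was -4.55 (0.192) and without MxCre mouse 1 -5.62 (0.0641). With 11 mice against 2 the exact permutation p cannot go below 0.0128, or 0.0641 after adjustment, so none of these omissions could pass the test and their p-values say nothing about stability. Omissions of 1 mouse with Dnmt3a could pass, and the adjusted exact permutation p was 0.0350 without Dnmt3a mouse 1 or 2 and 0.0524, above the threshold of 0.05, without each of the other 9. At 3000 UMIs per cell, with all mice, the difference was -1.86 points with an adjusted exact permutation p of 0.151, and with at least 2 Hlf UMIs per member it was -2.06 (0.0687). UMIs of Hlf were found in 3.14% to 8.22% of cells with at least 2 Elane UMIs per mouse at the thinned depth, against 5.74% to 28.2% of all thinned cells.

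For gene expression, the UMIs of the members were summed per mouse and tested with the quasi-likelihood test of edgeR over 11054 genes, and a gene was called changed at a Benjamini-Hochberg adjusted p below 0.05. Levels are CPM of these sums, folds are log2 with their SE, and a value in each mouse is listed in replicate order. A level per cell and the mix of cells within the rule cannot be told apart in such sums. Genes named for the size of their change were picked among called genes whose CPM did not overlap between the compared groups. For these genes, among them Socs2, Tgm2, Mycn, Satb1, Flt3, Iigp1, Lrmda, Plec and Zfp990, separation of those groups was a condition of naming. It adds no support to the test.

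The targeted genes came first. Tnfrsf1a was 39.1, 43.1 and 44.8 CPM in the MxCre mice, 31.1, 42.5, 34.2 and 42.95 in Dnmt3a, 38.5, 36.05 and 39.5 in Dnmt3a;Tnfr1KO and 43.2, 36.1, 54.1 and 54.4 in Dnmt3a;Tnfr2KO. It was thus no lower in the mice labelled as its knockout (log2 fold change 0.00 ± 0.16, adjusted p = 0.997 against Dnmt3a). The assay counts 3' ends and which part of the gene is deleted is not given in the sources used here, so this level does not check the label, and the group is called Tnfr1KO-labelled below. Tnfrsf1b was 10.8, 17.7 and 13.7 CPM in MxCre, 11.4, 6.92, 7.44 and 11.4 in Dnmt3a, 9.23, 10.5 and 13.9 in Tnfr1KO-labelled and 5.29, 5.67, 6.53 and 6.61 in Dnmt3a;Tnfr2KO mice. All 4 Dnmt3a;Tnfr2KO mice were below every other mouse, but the change against Dnmt3a did not pass the test (-0.58 ± 0.25, adjusted p = 0.393). In the other cells of the same libraries Tnfrsf1b was 4.35 to 5.56 CPM in Dnmt3a;Tnfr2KO and 10.6 to 16.9 CPM elsewhere. Over the 3 Dnmt3a genotypes together Tnfrsf1b fell against MxCre (log2 fold change -0.71 ± 0.18, adjusted p = 0.0319), a contrast that includes its own knockout. Dnmt3a transcripts were 37.8 to 53.1 CPM in Dnmt3a and 31.5 to 36.5 CPM in MxCre (0.39 ± 0.13, adjusted p = 0.108), and the ligand gene Tnf was at 0.933 to 5.39 CPM over the 14 mice with no call in any comparison.

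The Dnmt3a members differed from MxCre members in some genes of the stem identity, megakaryocyte, interferon, myeloid and lymphoid lists. The stem identity, megakaryocyte and interferon genes that passed the test fell, apart from Cd34, and the myeloid and lymphoid genes that passed it rose. Markers of mature granulocytes moved as well: of 8 tested, Ltf and Chil3 fell in Dnmt3a (median -2.90) and Ngp, Ltf, Lcn2 and Chil3 over all genotypes (median -3.27), with 8 of 8 negative in both, and with called doublets removed these 4 genes changed sign over all genotypes. In Dnmt3a against MxCre 146 genes rose and 199 fell, 3.12% of the genes tested (1.32% higher and 1.8% lower). With the 3 Dnmt3a genotypes averaged against MxCre 87 rose and 249 fell, or 3.04% (0.787% and 2.25%). The median change of all genes tested was 0.01 and 0.00 on the log2 scale, and the CPM of the groups did not overlap for 15.2% and 1.88% of them. Both comparisons share the MxCre mice and the Dnmt3a mice, so their values are set side by side and neither supports the other. MxCre mice 2 and 3 carried most of the calls: the counts were 61 and 84 without MxCre mouse 2, 38 and 47 without MxCre mouse 3, and 19 and 359 without Dnmt3a mice 1 and 4 together.

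Part of the genes of the stem identity list fell. Of 34 such genes tested, 9 fell and 1 rose in Dnmt3a (30 of 34 with a negative sign, median -0.82), and 16 fell and 1 rose over all Dnmt3a genotypes (median -0.91). Socs2, a feedback inhibitor of cytokine signalling, was 18.5, 43.6 and 58.8 CPM in MxCre and 0.916, 4.06, 4.76 and 3.79 in Dnmt3a (log2 fold change -3.48 ± 0.65, adjusted p = 0.00972). The Dnmt3a values were all below the lowest MxCre mouse. Pdzk1ip1, a stem cell membrane protein gene, was 41.03, 53.2 and 67.5 CPM in MxCre, 23.8, 24.1, 19.3 and 26.5 in Dnmt3a, 23.9, 27.5 and 17.97 in Tnfr1KO-labelled and 25.6, 25.4, 35.5 and 26.7 in Dnmt3a;Tnfr2KO mice. Every MxCre mouse was above every other mouse, and the fall was -1.22 ± 0.17, adjusted p = 0.00143 in Dnmt3a and -1.13 ± 0.13, adjusted p = 9.39e-05 over all genotypes. Tgm2, which encodes transglutaminase 2, was 12.8, 24.3 and 32.02 CPM in MxCre against 3.35 to 10.1 and 3.62 to 8.399 CPM in the Dnmt3a and Tnfr1KO-labelled mice and in the Dnmt3a;Tnfr2KO mice (-2.30 ± 0.25, adjusted p = 3.34e-05 over all genotypes).

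Mycn, a MYC family transcription factor gene of stem cells, showed the same order, at 23.96, 55.1 and 70.9 CPM in MxCre and 8.22 to 21.1 CPM in the other 11 mice (-1.81 ± 0.25, adjusted p = 0.000559 over all genotypes). The endothelial-type adhesion gene Esam (-1.13 ± 0.16, adjusted p = 0.00064) and the receptor gene Tie1 (-0.97 ± 0.15, adjusted p = 0.00101) fell as well over all genotypes. So did Fgd5, Clec1a, Sult1a1, Gimap5, Apoe, Fhl1, Cish, Trpc6, Ltb and the cell cycle inhibitor gene Cdkn1c, each over all genotypes. Aldh1a1, which encodes a retinaldehyde dehydrogenase, was 44.6, 75.3 and 69.1 CPM in MxCre and 3.66 to 36.01 CPM elsewhere (-1.78 ± 0.26, adjusted p = 0.000748 over all genotypes). The gene of the list that rose was Cd34, the surface glycoprotein that the most primitive adult mouse stem cells lack, so its rise does not mark more of those cells. It rose from 238 to 331 CPM in MxCre to 387 to 414 CPM in Dnmt3a (log2 fold change 0.49 ± 0.13, adjusted p = 0.0385), with no overlap between these groups. Without MxCre mouse 3 the count of stem cell genes that fell was 3 in Dnmt3a and 5 over all genotypes, with medians of -0.62 and -0.74, and without Dnmt3a mice 1 and 4 it was 3 and 16.

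Few of the transcription factors that regulate stem cells passed the test. Of 41 tested, 2 rose and 1 fell in Dnmt3a, with a median of -0.18. Tcf15, which marks quiescent stem cells, fell from 11.98, 21 and 23.8 CPM in MxCre to 0.916, 5.97, 6.84 and 3.79 in Dnmt3a (log2 fold change -1.97 ± 0.36, adjusted p = 0.00932). Satb1, a chromatin organiser of lymphoid-directed stem cells, was 11.7, 8.73 and 7.42 CPM in MxCre, 59.1, 49.6, 17.6 and 20.2 in Dnmt3a, 41.5, 37.3 and 34.9 in Tnfr1KO-labelled and 25.6, 30.8, 37.3 and 27.7 in Dnmt3a;Tnfr2KO mice. No mouse with Dnmt3a reached down to the MxCre values, and the rise was 1.996 ± 0.31, adjusted p = 0.00257 in Dnmt3a and 1.89 ± 0.28, adjusted p = 0.000676 over all genotypes. Ikzf2 rose in Dnmt3a (log2 fold change 0.46), and Tal1, Hoxa10 and Zfpm1 fell over all genotypes. Hoxa9, Meis1, Runx1, Gata2 and the self-renewal gene Mllt3 did not pass the test in either comparison.

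Part of the megakaryocyte genes fell when all UMIs were used. Of the 16 tested, 5 fell in Dnmt3a (median -0.90) and 9 fell over all Dnmt3a genotypes (median -0.85, 13 of 16 negative). The thrombin receptor gene F2r was 38.7, 63.5 and 52.95 CPM in MxCre, 22.4, 28.9, 29.5 and 23.4 in Dnmt3a, 16.9, 20.96 and 41.1 in Tnfr1KO-labelled and 41.5, 47.5, 16.8 and 26.9 in Dnmt3a;Tnfr2KO mice (-0.95 ± 0.25, adjusted p = 0.0464 in Dnmt3a and -0.81 ± 0.20, adjusted p = 0.0312 over all genotypes). All Dnmt3a mice were below all MxCre mice, while Tnfr1KO-labelled mouse 3 and Dnmt3a;Tnfr2KO mice 1 and 2 lay within the MxCre range. Vwf, which encodes von Willebrand factor and marks platelet-biased stem cells, was 1.90, 5.18 and 21.4 CPM in MxCre and 0.557 to 5.599 CPM in the other mice (-2.44 ± 0.49, adjusted p = 0.00837 over all genotypes). MxCre mouse 3 alone was above the rest, since Dnmt3a;Tnfr2KO mouse 3 was above the other MxCre mice. Gp9 and Gp5, which encode platelet glycoproteins, fell in Dnmt3a by log2 values of -0.99 and -1.05. Without MxCre mouse 3 edgeR called no megakaryocyte gene in either comparison (7 and 8 of 16 had an unadjusted p below 0.05), and without MxCre mouse 2 the counts were 0 and 3. When each cell was thinned to 5000 UMIs, 0 and 1 of the 7 genes still tested were called, with medians of 0.21 and -0.05. Markers of mature megakaryocytes summed to 22.9 to 54.1 CPM in MxCre members and 11.9 to 21.4 CPM in the others, with 2 to 6 of the 10 markers at 0 in a mouse.

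A few myeloid and lymphoid genes rose. Of 23 myeloid genes tested, 3 rose in Dnmt3a and none fell, with 21 of 23 positive and a median of 0.41. These were Irf8, the transcription factor gene of monocyte and dendritic fate, the lectin receptor gene Clec12a and Emb. Irf8 was 8.06, 4.64 and 4.65 CPM in MxCre and 10.1, 17.9, 9.82 and 10.7 in Dnmt3a (log2 fold change 1.09 ± 0.29, adjusted p = 0.0429), without overlap. Mpo and the proteinase gene Prtn3 joined them over all genotypes, at 0.96 ± 0.26, adjusted p = 0.0499 and 0.57 ± 0.14, adjusted p = 0.0319. Mpo was 322, 171 and 115 CPM in MxCre and 239 to 573 CPM elsewhere, so MxCre mouse 1 lay inside the range of the other groups. By edgeR, 0 myeloid genes were called in either comparison without MxCre mouse 2 (7 and 11 with an unadjusted p below 0.05) or without MxCre mouse 3 (4 and 9).

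Of 17 lymphoid genes 4 rose in both comparisons, with medians of 0.29 and 0.19, among them Flt3, Satb1 and Ighm, the heavy chain of immunoglobulin M. The summed level of the list overlapped between the groups, at 973 ± 148 CPM in MxCre (SD, n = 3) and 1021.5 ± 78.2 in Dnmt3a (n = 4). Flt3 was 20.8, 24 and 15.9 CPM in MxCre, 44.4, 47.3, 28.6 and 32.8 in Dnmt3a, 52.3, 41.9 and 51.9 in Tnfr1KO-labelled and 30.6, 44.6, 41.1 and 37.2 in Dnmt3a;Tnfr2KO mice. Every mouse with Dnmt3a was above all 3 MxCre mice (0.96 ± 0.18, adjusted p = 0.00999 in Dnmt3a and 1.06 ± 0.16, adjusted p = 0.000829 over all genotypes). Ighm was 2.96, 4.64 and 1.79 CPM in MxCre and 4.12, 10.7, 13.7 and 12 in Dnmt3a (log2 fold change 1.86 ± 0.39, adjusted p = 0.0161), and here Dnmt3a mouse 1 lay within the MxCre range. B cell markers summed to 81.1 to 102 CPM in MxCre and 36.2 to 287 CPM in Dnmt3a members, with Ms4a1 and Pax5 at 0 in all mice of both groups. Among the other cytokine receptor genes Il6ra rose in both comparisons and Ifngr1 in Dnmt3a, while the interleukin 18 receptor gene Il18r1 fell from 6.27 to 6.89 to 2.08 to 2.86 CPM (log2 fold change -1.44 ± 0.27, adjusted p = 0.00937).

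**Figure D3:**
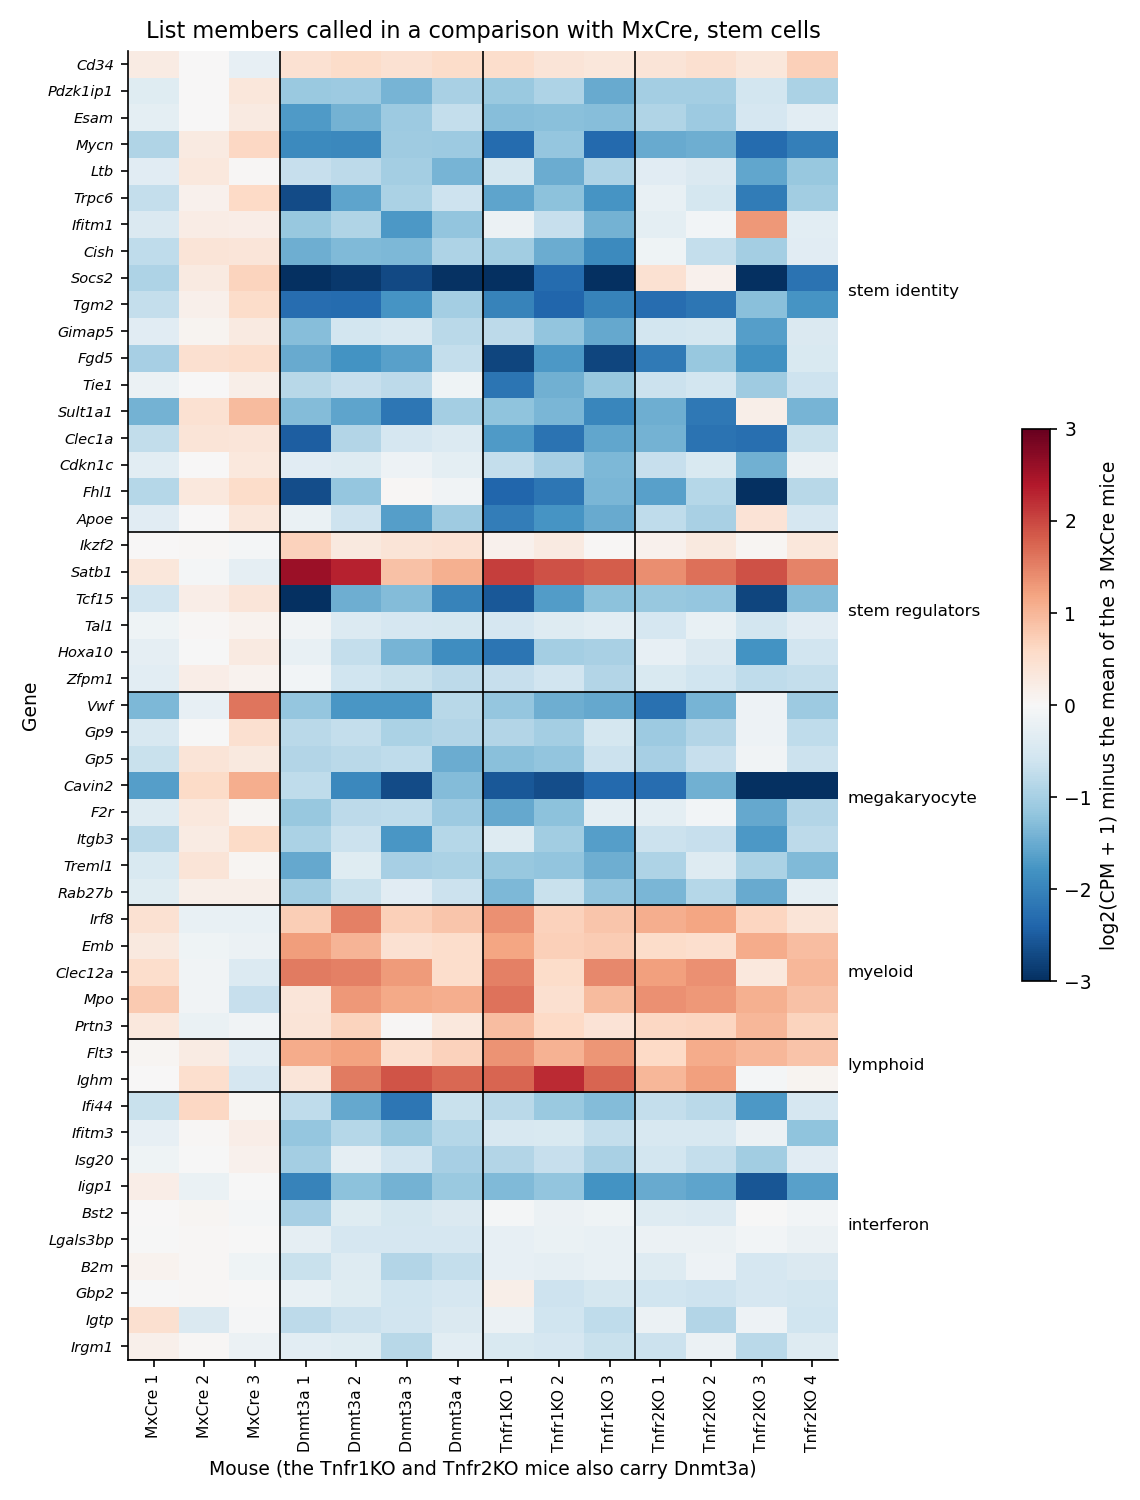
Heat map of 49 genes of 6 lists (stem identity, stem regulators, megakaryocyte, myeloid, lymphoid and interferon) that were called in Dnmt3a against MxCre or over all Dnmt3a genotypes, with 1 column per mouse. Colour is log2(CPM + 1) minus the mean of the 3 MxCre mice, limited to -3 and 3, so the MxCre columns centre on 0 by construction. The genes were picked by these calls in the same mice, so their directions repeat the calls and do not describe the uncalled members of the lists. Among the genes drawn, those of the stem identity, megakaryocyte and interferon lists are mostly lower in the 11 mice with Dnmt3a. Those of the myeloid and lymphoid lists are mostly higher. The MxCre mice differ among themselves, as for Vwf (1.90 to 21.4 CPM).

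A few genes of the cell cycle rose in Dnmt3a members. Of 46 S phase genes 3 rose, among them Ung and Usp1 of DNA repair or its control, with 41 of 46 positive and a median of 0.25. Of 53 genes of the G2 and M phases 3 rose (Mki67, Smc4 and Cdca2), with a median of 0.12. Called were 6.52% and 5.66% of these lists, beside 3.12% of all genes tested. The summed level of the G2 and M phase list overlapped between the groups, at 7039 to 8724 CPM in MxCre and 6737 to 8860 in Dnmt3a. Mki67, the proliferation antigen gene, was 239, 219 and 221 CPM in MxCre, 605, 282, 446 and 401 in Dnmt3a, 257, 224 and 246 in Tnfr1KO-labelled and 370.5, 246, 392 and 252 in Dnmt3a;Tnfr2KO mice. All Dnmt3a mice were above all MxCre mice (log2 fold change 0.93 ± 0.20, adjusted p = 0.0183), and over all genotypes the change was not called (0.50 ± 0.17, adjusted p = 0.161). Of 28 genes that control the cell cycle and quiescence edgeR called 0 in Dnmt3a, with 8 at an unadjusted p below 0.05. Over all genotypes Cdkn1c and the cyclin gene Ccnd2 of that list fell, Smc4 rose and Gas2l3 fell among the G2 and M phase genes, and edgeR called 0 S phase genes, with 11 at an unadjusted p below 0.05. Without MxCre mouse 2 or 3 it called 0 S phase and 0 G2 and M phase genes in Dnmt3a, with 8 to 13 per list and mouse left out at an unadjusted p below 0.05. The survival gene Bcl2 rose from 85.98, 60.3 and 65.8 CPM in MxCre to 135, 123, 118 and 129.5 in Dnmt3a (log2 fold change 0.83 ± 0.13, adjusted p = 0.00257), and it was the only one of 13 BCL2 family genes called.

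Some interferon response genes fell. Of 49 tested, 8 fell and none rose in Dnmt3a (39 of 49 negative, median -0.38), and 8 fell over all genotypes (41 negative, median -0.30). Their summed level was 8303 ± 194 CPM in MxCre (SD, n = 3), 6257 ± 555 in Dnmt3a (n = 4), 7386 ± 481 in Tnfr1KO-labelled (n = 3) and 7519 ± 529 in Dnmt3a;Tnfr2KO (n = 4). Iigp1, an immunity-related GTPase gene, was 44.2, 33.3 and 37.7 CPM in MxCre, 8.70, 15.8, 13.7 and 17.1 in Dnmt3a, 14.6, 16.1 and 10.3 in Tnfr1KO-labelled and 12.8, 12.2, 5.599 and 11.8 in Dnmt3a;Tnfr2KO mice. Each MxCre mouse was above all 11 others (-1.48 ± 0.19, adjusted p = 0.000788 in Dnmt3a and -1.56 ± 0.15, adjusted p = 5.42e-06 over all genotypes). Ifitm3, a membrane protein gene against virus entry, fell from 584, 707 and 799 to 308, 381, 315 and 383 CPM in Dnmt3a (-1.01 ± 0.18, adjusted p = 0.00706). Ifitm1, its neighbour in the family and also a stem cell gene, fell in Dnmt3a and was higher again in Dnmt3a;Tnfr2KO (-1.24 ± 0.33, adjusted p = 0.0457 against MxCre, 1.53 ± 0.32, adjusted p = 0.0289 against Dnmt3a), at 501, 579, 1529 and 497 CPM in Dnmt3a;Tnfr2KO mice, of which mouse 3 was far above the others. B2m, Bst2, Isg20, Ifi44 and Lgals3bp fell in Dnmt3a too. Without MxCre mouse 3 the count of interferon genes that fell was 2 in Dnmt3a and 1 over all genotypes.

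Few TNF pathway genes passed the test. Of 41 genes of TNF receptors and their signalling, 2 fell in Dnmt3a (Ltb and Tnfrsf18, median -0.04) and Tnfrsf1b joined them over all genotypes (median 0.00). Tnfrsf18, which encodes the receptor GITR, was 22.3, 28.1 and 25.7 CPM in MxCre and 11.9, 17.4, 16.4 and 7.58 in Dnmt3a (log2 fold change -0.83 ± 0.19, adjusted p = 0.0259), without overlap. Among 36 NF-kB target genes only Tnfaip2 passed the test, which fell from 37.6, 38.2 and 35.8 to 16.5, 18.6, 11.9 and 9.48 CPM in Dnmt3a (-1.34 ± 0.25, adjusted p = 0.00972), and the inhibitor gene Nfkbia did not. In the receptor knockouts against Dnmt3a, edgeR called 0 genes of the TNF list, with 1 gene in Tnfr1KO-labelled and 6 in Dnmt3a;Tnfr2KO at an unadjusted p below 0.05. It called 0.507% and 0.498% of all genes there.

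Several genes with large changes lay outside these lists. Mtus2, a microtubule-associated protein gene, was 27.2, 22.6 and 20.8 CPM in MxCre and 0, 0.477, 0 and 0 in Dnmt3a, 544 UMIs against 2, a ratio of 126 with a 95% counting interval of 34.7 to 1043. It was 0 to 2.31 CPM in the receptor knockouts. Psma8, a proteasome subunit gene known from testis, and Hormad2, a meiosis gene, had no UMI among the 10763904 of the Dnmt3a members, at least 84.3-fold and 45.1-fold lower than MxCre with a floor of 3 UMIs over the group. In the other genotypes they varied by mouse: Psma8 was 0.769, 16.8 and 13.4 CPM in Tnfr1KO-labelled and 0, 0, 2.80 and 43.8 in Dnmt3a;Tnfr2KO mice, and Hormad2 was 16.4, 15.6, 0 and 0 in the latter. The predicted gene Gm43305 rose from 2.73, 2.45 and 7.69 CPM in MxCre to 70.96, 53.7, 41.1 and 60.01 in Dnmt3a, with 13.1, 33.5 and 29.8 in Tnfr1KO-labelled and 70.8, 64.3, 79.3 and 65.6 in Dnmt3a;Tnfr2KO mice (log2 fold change 3.53 ± 0.30, adjusted p = 3.07e-06 in Dnmt3a and 3.29 ± 0.28, adjusted p = 1.31e-06 over all genotypes). Every mouse with Dnmt3a was above the MxCre mice in Gm43305, which the choice of named genes required. Dhrs3, a retinaldehyde reductase gene, rose from 11.3 to 12.8 to 17.1 to 23.4 CPM in Dnmt3a (log2 fold change 0.82 ± 0.19, adjusted p = 0.0264) and was 26.1 to 51.2 CPM in Dnmt3a;Tnfr2KO (0.90 ± 0.17, adjusted p = 0.0137 against Dnmt3a). Lhcgr, Itsn1, Plscr2 and Cavin1 fell over all genotypes, by log2 values of -1.97, -1.68, -2.68 and -1.49.

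Few genes of these cells passed the test between the groups labelled as receptor knockouts and Dnmt3a. In Tnfr1KO-labelled against Dnmt3a 45 genes rose and 11 fell, 0.507% of those tested (0.407% higher and 0.0995% lower). By edgeR, 0 genes of the stem identity, stem regulator, megakaryocyte, myeloid, lymphoid and interferon lists were among them, with 8, 7, 1, 1, 3 and 8 at an unadjusted p below 0.05. The medians were -0.17 for stem identity and 0.07 for interferon genes. Markers of some other cell types also leaned to 1 side with 0 called. The 5 tested mast and basophil markers were all positive (median 0.89, 3 at an unadjusted p below 0.05 by edgeR). The 5 late erythroid markers were all negative (median -3.90, 4 at that p), with sums of 32.3 to 144 CPM. In Dnmt3a the sums were 3175 CPM in mouse 4 and 68.5 to 107 in the other mice, so 1 mouse was high. The 8 mature granulocyte markers were all negative too (median -1.87, 0 at that p), with sums of 41.7 to 148 CPM. Here Dnmt3a mouse 4 was at 1519 CPM and the other Dnmt3a mice at 12.6 to 25.2, below the Tnfr1KO-labelled mice. Unadjusted p below 0.05 was reached by 1486 of all genes, and DESeq2 called 188 genes in this comparison. The CPM of the groups did not overlap for 11.8% of all genes tested. The count was 10 without Tnfr1KO-labelled mouse 2 and 173 without Dnmt3a mouse 2.

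Lrmda, a gene known from melanocytes, was almost lost in the Tnfr1KO-labelled members. It was 17.9, 17.7 and 20.04 CPM in MxCre, 17.4, 21.7, 18.1 and 17.1 in Dnmt3a, 1.54, 3.35 and 3.08 in Tnfr1KO-labelled and 15.04, 11.99, 13.1 and 8.81 in Dnmt3a;Tnfr2KO mice (log2 fold change -2.66 ± 0.26, adjusted p = 1.91e-05). The 3 Tnfr1KO-labelled mice were below all other mice, and in the other cells of the libraries it was 1.93 to 2.25 against 10.9 to 19.4 CPM. Sox6, a transcription factor gene of erythroid maturation, was 15.1, 14.3, 15.2 and 16.4 CPM in Dnmt3a and 4.62, 3.35 and 4.62 in Tnfr1KO-labelled mice (-1.93 ± 0.30, adjusted p = 0.00368). Gdf3, a TGF-beta family ligand gene, was 34.3, 57.8, 85.1 and 116 CPM in Dnmt3a, 20.8, 7.96 and 16.9 in Tnfr1KO-labelled and 8.08, 5.67, 19.6 and 21.8 in Dnmt3a;Tnfr2KO mice, lower in both (-2.44 ± 0.45, adjusted p = 0.0122, and -2.54 ± 0.39, adjusted p = 0.00247). Plcb4, Plcb2, Rb1cc1 and Trim33 also fell, by log2 values of -1.02, -0.64, -0.81 and -0.58. So did the antisense RNA Kcnq1ot1 (log2 fold change -0.93), which cannot be told from Kcnq1 where the use of strand in counting is not given in the sources used here.

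Among the genes that rose, the chemokine gene Ccl5 was the only NF-kB target called of 36 (median 0.25). It was 1.30, 1.36 and 2.15 CPM in MxCre, 0, 1.67, 0 and 0.632 in Dnmt3a, 12.3, 6.71 and 12.8 in Tnfr1KO-labelled and 0.557, 0.162, 1.87 and 3.92 in Dnmt3a;Tnfr2KO mice (log2 fold change 3.81 ± 0.75, adjusted p = 0.0183), and the Tnfr1KO-labelled mice were above all others. Ckm, the muscle creatine kinase gene, was 0.458, 7.64, 8.33 and 4.42 CPM in Dnmt3a, 71.6, 64.5 and 87.3 in Tnfr1KO-labelled and 75.5, 72.1, 28 and 51.9 in Dnmt3a;Tnfr2KO mice (3.65 ± 0.34, adjusted p = 1.57e-05, and 3.35 ± 0.33, adjusted p = 1.52e-05). It was as low in MxCre (1.64 to 2.85 CPM), and the other cells of the libraries showed the same split, 5.16 to 20.7 against 85.9 to 221 CPM. Tdg, a thymine DNA glycosylase gene that acts in DNA demethylation, rose from 45.3, 39.1, 40.2 and 42.95 to 66.2, 61.2 and 55.97 CPM (0.55 ± 0.12, adjusted p = 0.0426) and was the only one of the DNA methylation genes called. Of 25 immediate early genes edgeR called 0, with 10 at an unadjusted p below 0.05, 23 positive and a median of 0.53. Their sum was 3285 CPM in Tnfr1KO-labelled mouse 1 and 949 to 1862 in all other mice, so 1 mouse was high.

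Short ribosomal transcripts were also among the genes that rose in Tnfr1KO-labelled mice. Rps29, a small ribosomal protein gene, was 9210.1, 7549 and 7136 CPM in MxCre, 3024, 3791, 2546 and 2598 in Dnmt3a, 8699, 9352 and 9370.3 in Tnfr1KO-labelled and 10438, 8155, 5859.7 and 3339.8 in Dnmt3a;Tnfr2KO mice (log2 fold change 1.61 ± 0.24, adjusted p = 0.00368). The Dnmt3a mice were the lowest 4 apart from Dnmt3a;Tnfr2KO mouse 4, which lay within their range. The predicted gene Gm10076 (3.07 ± 0.65, adjusted p = 0.0334), Rpl38, Rps28, Rps27 and Atp5k rose as well. Of 88 ribosomal protein genes, a family chosen after the values were seen, 11 fell in Dnmt3a against MxCre, 11 rose in Tnfr1KO-labelled and 11 rose in Dnmt3a;Tnfr2KO against Dnmt3a, with medians of -0.15, 0.23 and 0.23. Histone genes went in both directions. Hist1h2ap was 1318, 533 and 609 CPM in MxCre, 76.5, 112, 57.4 and 100.4 in Dnmt3a, 1406, 1419 and 605 in Tnfr1KO-labelled and 2786, 538, 85.9 and 55.1 in Dnmt3a;Tnfr2KO mice. Dnmt3a;Tnfr2KO mice 3 and 4 were as low as Dnmt3a, so the 4 mice of that genotype did not move together. Hist2h2ac was 59.2, 66.3 and 55.8 CPM in MxCre, 336, 115, 69.3 and 85.3 in Dnmt3a, 13.1, 12.4 and 17.97 in Tnfr1KO-labelled and 20.6, 10.2, 94.3 and 22.5 in Dnmt3a;Tnfr2KO mice, and it fell in Tnfr1KO-labelled (log2 fold change -3.41 ± 0.63, adjusted p = 0.0122). Hist2h2aa1 rose there (log2 fold change 1.93). In Dnmt3a against MxCre Hist1h2an, Hist1h1b and Hist1h1a rose by log2 values of 2.95, 1.36 and 1.34, while Hist1h2ap and Hist2h2aa1 changed by -3.25 and -1.83, both called lower. The other cells of each library had nearly the same levels of Rps29, 9629.8, 7744 and 6667 CPM in MxCre and 2916, 3739.7, 2625 and 2409 in Dnmt3a. Histone and several ribosomal genes have near-identical copies, so their counts are uncertain, and the cause of the split between mice was not tested.

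**Figure D4:**
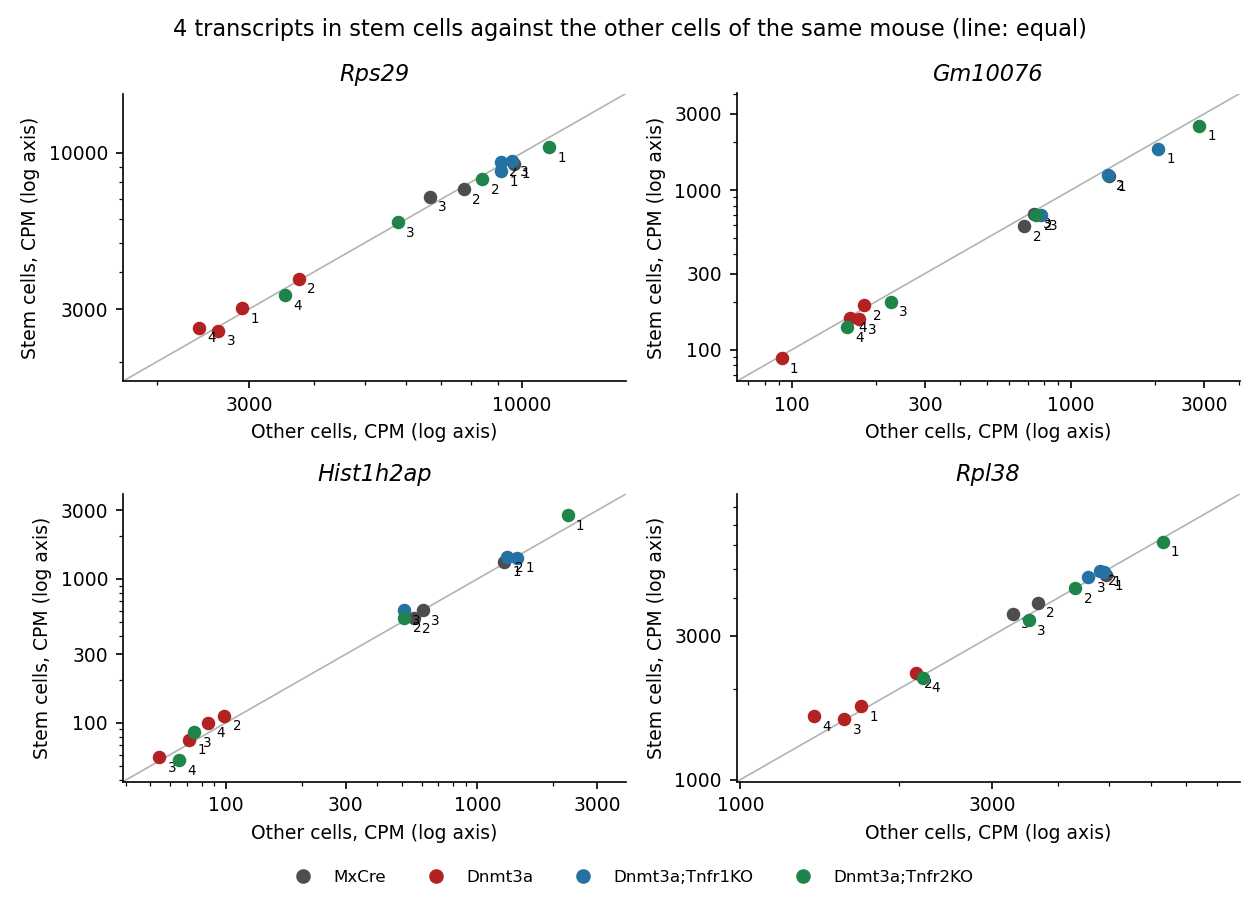
Level of Rps29, Gm10076, Hist1h2ap and Rpl38 in the Hlf-positive stem cells (vertical) against all other kept cells of the same library (horizontal), in CPM on log axes, with 1 point per mouse coloured by group. The mice lie near the line of equal level, from about the lowest Dnmt3a mice (Rps29 at 2546 CPM in stem cells) to the highest, Dnmt3a;Tnfr2KO mouse 1 (10438 CPM).

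In Dnmt3a;Tnfr2KO against Dnmt3a 39 genes rose and 16 fell, 0.498% of those tested (0.353% higher and 0.145% lower). Of the stem identity and interferon lists edgeR called Ifitm1 alone, and of the stem regulator, megakaryocyte, myeloid and lymphoid lists 0 genes, with 1, 0, 3 and 3 at an unadjusted p below 0.05. The medians were 0.21 for stem identity and 0.10 for megakaryocyte genes. The summed level of the stem identity list was 3773 to 4728 CPM in Dnmt3a;Tnfr2KO mice and 3133 to 3557 in Dnmt3a. It was 3031 to 3613 CPM in Tnfr1KO-labelled and 3961 to 4782 in MxCre mice. Ifitm1 is part of this sum, at 497 to 1529 CPM in Dnmt3a;Tnfr2KO mice, and the sum was not tested. The CPM of the groups did not overlap for 5.1% of all genes tested. The count was 163 without Dnmt3a mouse 2 and 114 without Dnmt3a;Tnfr2KO mouse 4, and edgeR gave an unadjusted p below 0.05 for 1201 genes. Socs2 was high in part of this group, at 49.9, 39.7, 1.87 and 7.10 CPM against 0.916, 4.06, 4.76 and 3.79 in Dnmt3a (2.95 ± 0.67, adjusted p = 0.0533), with Dnmt3a;Tnfr2KO mice 1 and 2 inside the MxCre range and mice 3 and 4 outside it. Adgrl4, an adhesion receptor gene, fell from 528, 321, 455 and 498 CPM in Dnmt3a to 279.7, 289, 292 and 317 (-0.61 ± 0.13, adjusted p = 0.0415), close to the 286 to 304 CPM of MxCre. Plec, which encodes the cytoskeletal linker plectin, was 33.1, 41, 34.5 and 41.4 CPM in Dnmt3a;Tnfr2KO and 64.3 to 83.4 CPM in all other mice (-0.97 ± 0.12, adjusted p = 0.000281). The predicted genes Gm47283 and Gm21887 rose by log2 values of 1.86 and 2.86, and Mid1 by 1.22. Btaf1 and Phf11d fell by -0.97 and -1.86.

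Part of the genes called lay near the targeted receptor gene. On GRCm38, Tnfrsf1b spans bases 145212368 to 145246870 of chromosome 4. Of the 50 called genes with a position, 11 (22%) lay on chromosome 4 within 15 Mb of its start, against 234 (2.19%) of the 10705 tested genes with a position. The window was set after the values were seen. The zinc finger gene Zfp990, 0.298 Mb away, was at 0 to 1.19 CPM in the mice of the other groups and 26.2, 21.7, 52.3 and 41.4 CPM in Dnmt3a;Tnfr2KO (log2 fold change 5.36 ± 0.42, adjusted p = 5.77e-07). Lrrc47 rose from 27.9, 25.1, 22.02 and 23.4 CPM in Dnmt3a to 49.02, 47.2, 41.99 and 50.2 (0.96 ± 0.12, adjusted p = 0.000259). Both separated the 4 Dnmt3a;Tnfr2KO mice from all 10 others.

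Of the 11, 6 rose and 5 fell. Pusl1, a pseudouridine synthase-like gene 10.7 Mb away, was 9.61, 24.6, 17.6 and 20.2 CPM in Dnmt3a and 5.57, 4.54, 2.80 and 4.65 in Dnmt3a;Tnfr2KO mice (-1.97 ± 0.26, adjusted p = 0.000466). Noc2l, 11 Mb away, was 113, 113, 110.4 and 96.6 CPM against 67.7, 70.2, 66.3 and 59.3 (-0.72 ± 0.11, adjusted p = 0.00246). The others that fell were Agtrap, Zfp982 and Zfp991, and Dhrs3, Dffb, Zfp979 and A430005L14Rik rose. The same window around Tnfrsf1b held 7 of 329 placed genes called in Dnmt3a against MxCre (2.13%) and 0 of 50 called in Tnfr1KO-labelled against Dnmt3a. Around Tnfrsf1a, on chromosome 6 from 125349723 to 125362483, lay 1 of the 50 genes called in Tnfr1KO-labelled against Dnmt3a (Gdf3, 2%), against 158 (1.48%) of the genes tested.

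**Figure D5:**
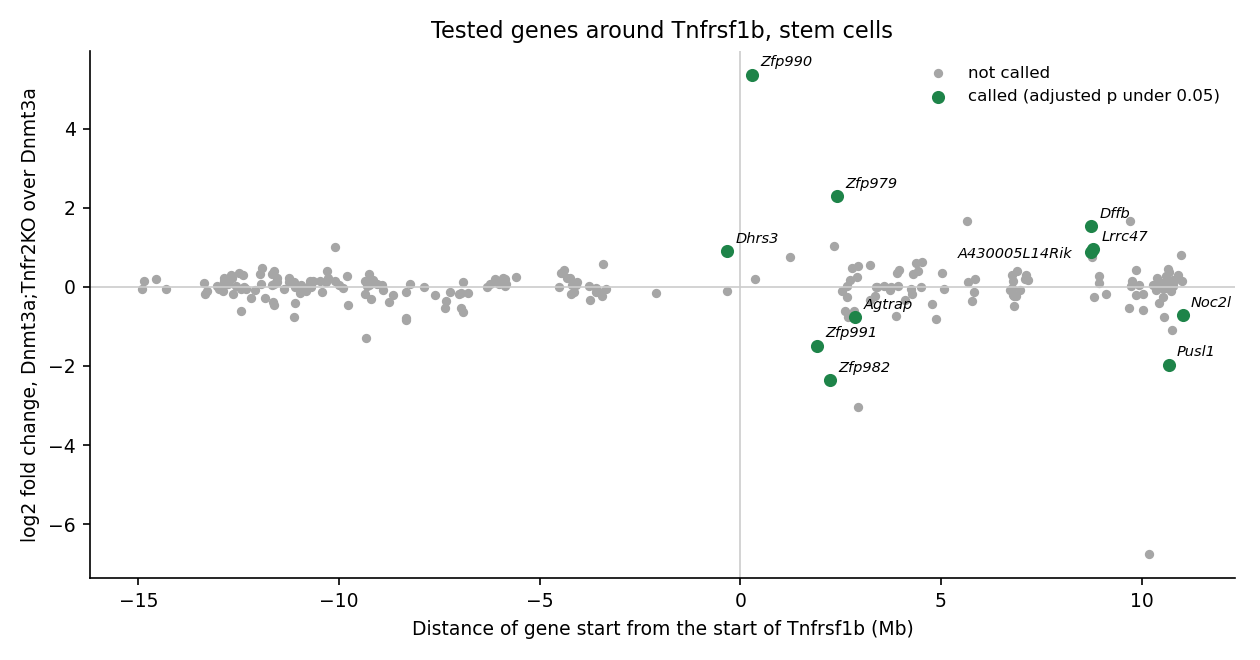
Log2 fold change in Dnmt3a;Tnfr2KO against Dnmt3a stem cells for each tested gene within 15 Mb of the Tnfrsf1b start on chromosome 4, by its distance in Mb, with genes called by edgeR in green and others in grey. The 11 called genes, 6 higher and 5 lower, lie from -0.320 to 11 Mb of the start, and Zfp990 is the highest at 5.36.

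Set against each other, the receptor knockouts differed in 12 genes, 0.109% of those tested: 5 higher (0.0452%) and 7 lower (0.0633%) in Dnmt3a;Tnfr2KO. The CPM of these groups did not overlap for 6.11% of all genes tested. Of the 10 with a position, 6 (60%) lay in the window around Tnfrsf1b, among them Zfp990, A430005L14Rik and Lrrc47 higher and Pusl1 and Noc2l lower. For Zfp990 the members held 453 UMIs in Dnmt3a;Tnfr2KO and 1 in Tnfr1KO-labelled mice, a ratio of 247 with a 95% counting interval of 44.2 to 9794. Lrmda was higher in Dnmt3a;Tnfr2KO (2.02 ± 0.27, adjusted p = 0.00173) and the transporter gene Slc16a11 lower, at 1.11, 0.486, 2.80 and 7.10 CPM against 11.5, 18.9 and 20.03 (-2.66 ± 0.50, adjusted p = 0.0326). Of 34 stem identity genes edgeR called 0, with 9 at an unadjusted p below 0.05, 29 positive and a median of 0.33, and over all genes 452 reached that unadjusted p.

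Most effects of genotype were not shown to differ between the members and the other kept cells of the same mice. The difference of the effects was tested over 15014 genes with the mouse as a block, and 6 genes (0.04%) differed for Dnmt3a against MxCre, 1 (0.00666%) for Tnfr1KO-labelled and 5 (0.0333%) for Dnmt3a;Tnfr2KO against Dnmt3a. Socs2 differed in the first and the last. In the other cells it was 3.08, 4.08 and 12.7 CPM in MxCre, 2.37, 1.42, 1.78 and 82.98 in Dnmt3a and 4.004, 3.52, 0.339 and 1.02 in Dnmt3a;Tnfr2KO mice, so Dnmt3a mouse 4 was high there and low among the members. The difference of its log2 effects was -4.22 ± 0.61 (SE, adjusted p = 0.00277) for Dnmt3a and 5.04 ± 0.62 (adjusted p = 0.000373) for Dnmt3a;Tnfr2KO. Without Dnmt3a mouse 4 the first was -1.61 (adjusted p = 0.157) and the second 2.42 (adjusted p = 0.0140). Oxr1, an oxidation resistance gene, was 55.6, 66.3 and 76.8 CPM in MxCre members and 40.3, 46.8, 45.5 and 46.1 in Dnmt3a members, where the other cells had 34.4, 39.1 and 38.5 and 45.5, 36.4, 39.7 and 47.4 CPM (difference -0.71 ± 0.13, adjusted p = 0.0423). Agtrap, an angiotensin receptor-associated protein gene near Tnfrsf1b, was 41.2, 35.1, 38.98 and 43.6 CPM in Dnmt3a members and 19.8, 21.1, 21.5 and 28.9 in Dnmt3a;Tnfr2KO members, against 27.7, 32.4, 39.96 and 35.5 and 39.7, 33.3, 42.5 and 49.8 CPM in the other cells (difference -1.02 ± 0.15, adjusted p = 0.00427). The other cells are mostly committed progenitors, so the groups of cells compared differ in type as well as in the rule. A second comparison used only the cells that met the rule but for Hlf. Dnmt3a mice 1 and 4 held just 8 and 11 such cells and were left out, so Dnmt3a rested on mice 2 and 3. There 27, 13 and 10 genes differed, Socs2, Oxr1 and Agtrap not among them. The mice changed as well as the cells, so these counts cannot be set down to the cells alone.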

How the data were processed

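The 14 libraries, 1 per mouse, are 10x Genomics 3' single-cell RNA libraries. The deposited files hold raw, unnormalized counts of UMIs for each gene in each barcode. Per the file headers, Cell Ranger 6.0.0 wrote them. The submitters' processing notes name bcl2fastq 2.20.0.422 and the builds mm10 and GRCm38, and gene positions were taken from a RefSeq gene table of GRCm38. How the strand was used in counting is not given in the sources used here.

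The 3524 members were found by the stated rule on raw UMIs, and the members, the gene lists and the comparisons were chosen with earlier results of these data known. Their UMIs were summed per mouse (58 to 800 cells) and tested in R 4.3.3 with edgeR 4.0.16 (quasi-likelihood, two-sided). The model held all 4 groups and no covariate, after TMM scaling and filterByExpr, and p-values were adjusted over 11054 genes by Benjamini-Hochberg. CPM used the TMM-scaled totals. The effect over all Dnmt3a genotypes is the mean of the 3 genotype effects. Differences between members and other cells were tested as an interaction with the library as a block. Shares were compared after thinning each cell to 5000 UMIs at random, leaving out 62 to 1831 shallower cells per mouse, by exact two-sided permutation tests. Doublets were called per library from simulated doublets among nearest neighbours and kept. Fits were tested on simulated data. Named genes were Tnfrsf1a, Tnfrsf1b, Dnmt3a and Tnf, up to 12 called genes per direction and comparison with the highest change among those at 10 CPM or more on average in 1 of the groups and without overlap, up to 5 differing between members and other cells, and list members, called genes first. Of 29 lists (636 genes), the 9 rule genes were left out. Bounds for genes without a UMI used a floor of 3 UMIs over the group, and 95% intervals of counts cover counting error only. DESeq2 1.42.0, RLE scaling, another filter, the fit of only the compared libraries, a replicate block, doublet removal, at least 2 Hlf UMIs, thinning and leaving out libraries were the alternatives. Some genes that met these rules are not reported here.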

Additional observations from a re-analysis of the deposited data

Results flagged for a closer look

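In 13 of 108 groups of 4 mice examined, 1 mouse lay far from the other 3 (gap over range above Dixon's 95% critical value). That value is meant for independent, normally distributed data. Some of these levels were near 0 and some items shared genes, so the count cannot be set against a chance rate. Dnmt3a;Tnfr2KO mouse 3 accounted for 4 stem cell or interferon genes: it was low in Tcf15 (1.87 CPM against 6.86 to 7.80 in the other 3 mice) and Iigp1 (5.599 against 11.8 to 12.8) and high in Ifitm1 (1529 against 497 to 579) and Pdzk1ip1 (35.5 against 25.4 to 26.7). Its endothelial and stromal markers also stood out, at a sum of 11.2 CPM against 1.95 to 3.18. Dnmt3a;Tnfr2KO mouse 4 was alone in Psma8 (43.8 CPM against 0 to 2.80) and high in Mtus2 (1.22 against 0 to 0.162). Dnmt3a mouse 2 held the only UMIs of Mtus2 in its group, at 0.477 CPM.

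Markers of mature cells stood out in single mice. Dnmt3a mouse 4 was high in late erythroid markers (3175 CPM against 68.5 to 107), mature granulocyte markers (1519 against 12.6 to 25.2) and Chil3, a neutrophil chitinase-like gene (6.32 against 0 to 0.716). Dnmt3a;Tnfr2KO mouse 1 was high in mature granulocyte markers, at 1165 CPM against 12.6 to 175, and Dnmt3a mouse 1 in endothelial and stromal markers, at 27.01 against 1.26 to 2.15, of which Cxcl12 made up 21.98, 0.239, 0 and 0 CPM in the 4 Dnmt3a mice. The part of this RNA in the comparisons was not tested beyond the counts without these mice.

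The effect of genotype differed between the members and the other cells, by the interaction test of edgeR, for 6 genes in Dnmt3a against MxCre: Sdc4 (-7.21 on the log2 scale, adjusted p = 1.75e-07), Scd1 (-11.18, 0.00277), Blnk (-6.59, 0.00393), Socs2 (-4.22, 0.00277), Gda (-3.23, 0.0113) and Oxr1 (-0.71, 0.0423). Sdc4, Scd1 and Blnk were below 4 CPM in the members of every mouse, and in the other cells they were high in Dnmt3a mouse 4 alone, Sdc4 at 3.26, 0.429, 2.30 and 99.6 CPM and Blnk at 5.04, 0.492, 3.02 and 91.1 CPM in the 4 Dnmt3a mice. In Dnmt3a;Tnfr2KO against Dnmt3a the 5 genes were Sdc4 (8.03, 0.000373), Id3 (12.16, 0.031), Socs2 (5.04, 0.000373), Gdf3 (-1.04, 0.031) and Agtrap (-1.02, 0.00427), and in Tnfr1KO-labelled against Dnmt3a the gene was 1700048O20Rik (7.12, 0.00155), which was also high in the other cells of Dnmt3a mouse 4 (0.457, 0, 0.357 and 37.3 CPM). Fitted values of genes with so few UMIs depend on the prior count and are no bounds.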

How the results depend on the processing

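Directions held more often than calls. Of 215 pairs of a gene followed under the alternatives and a comparison that passed the test, 33 passed it under every alternative run, 181 missed it under at least 1 and 8 changed sign under at least 1. An alternative that gave a gene no adjusted p was not counted for it. DESeq2 gave one for 13 of 22 such genes in Tnfr1KO-labelled and 7 of 24 in Dnmt3a;Tnfr2KO, and thinning for 47 of 67 in Dnmt3a. Pdzk1ip1, Satb1 and Tgm2 in Dnmt3a and over all Dnmt3a genotypes, Flt3, Mycn, Esam and Tie1 over all genotypes, Lrmda and Ckm in Tnfr1KO-labelled, and Zfp990, Noc2l and Pusl1 in Dnmt3a;Tnfr2KO were among the 33. The sums rest on 58 to 800 cells per mouse and 3 or 4 mice per group.

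Counts of called genes are given for Dnmt3a against MxCre, Tnfr1KO-labelled against Dnmt3a, Dnmt3a;Tnfr2KO against Dnmt3a, the receptor knockouts against each other and all Dnmt3a genotypes against MxCre, which were 345, 56, 55, 12 and 336. DESeq2 gave 188 for Tnfr1KO-labelled and 114 for Dnmt3a;Tnfr2KO. Fitting only the compared libraries gave 208, 92 and 20 for the first 3 and 205 for the last. Thinning cells to 5000 UMIs gave 110, 31, 34, 1 and 101, with fewer genes tested. With 1 mouse left out the ranges were 38 to 479, 10 to 173, 23 to 163, 3 to 20 and 47 to 466. Without MxCre mouse 2 the first and last were 61 and 84, and without MxCre mouse 3 they were 38 and 47, of which 37 and 45 were among the genes called with all mice. Without Dnmt3a mice 1 and 4 together the first 3 were 19, 3 and 14, and without MxCre mouse 2 and Dnmt3a mouse 4 together they were 23, 20 and 14 and the last 94. These joint omissions were chosen after seeing the data, and the causes were not tested.

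Same-numbered mice did not pair: over 19 pairs with the same replicate number the correlation of their deviations was -0.120 to 0.045, and 0 were above 0.1. With the replicate block the 5 counts were 328, 48, 62, 17 and 334, and 262, 40, 47, 10 and 275 of these genes were called without it.

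Genes that differed between members and other cells numbered 6, 1 and 5 for Dnmt3a, Tnfr1KO-labelled and Dnmt3a;Tnfr2KO. Against the cells with no Hlf they numbered 27, 13 and 10, of which 0 were shared, and Oxr1 (0.60), Gdf3 (0.17) and Agtrap (0.039) then had the opposite sign. That setting left out Dnmt3a mice 1 and 4, which held 8 and 11 such cells. With doublets removed the first was 23. With 1 mouse left out the ranges were 4 to 68, 0 to 2 and 3 to 15.

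The difference in share over all Dnmt3a genotypes was -1.86 points at 3000 UMIs per cell (adjusted exact permutation p = 0.151) and -2.06 with at least 2 Hlf UMIs (0.0687). With 1 mouse left out it was -5.62 to -2.16, and the adjusted p was 0.0350 without Dnmt3a mouse 1 or 2 and 0.0524 without each other mouse with Dnmt3a, while without an MxCre mouse it cannot go below 0.0641. With 1 mouse left out the other differences ranged from -5.35 to -1.89 for Dnmt3a, -1.12 to -0.126 for Tnfr1KO-labelled, -0.857 to 0.134 for Dnmt3a;Tnfr2KO and -0.123 to 0.765 between the knockouts, none past the test, and Dnmt3a was -1.32 at 3000 UMIs and -1.77 with at least 2 Hlf UMIs.

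With doublets removed, neutrophil genes changed sign: Chil3 in Dnmt3a (1.402) and over all genotypes (1.75), and Ngp (1.08), Ltf (0.23) and Lcn2 (0.51) over all genotypes. The following changed sign as well and were not called with all mice. Tnfrsf1a in Tnfr1KO-labelled was -0.0011 with RLE scaling, -0.000761 with DESeq2, -0.0099 with the other filter, -0.021 with doublets removed, -0.038 without Dnmt3a mice 1 and 4, and -0.083 to 0.082 with 1 mouse left out. Tnf in Dnmt3a;Tnfr2KO was -1.07e-06 with the replicate block, -0.018 with doublets removed, -0.045 without MxCre mouse 2 and Dnmt3a mouse 4, and -0.081 to 0.430 with 1 mouse left out. In the same omissions Tnf was -0.064 to 0.644 in Tnfr1KO-labelled, -0.555 to 0.154 between the knockouts and -0.310 to 0.091 over all genotypes. Dnmt3a over all genotypes was -0.045 with cells thinned.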

Other observations

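Genes of adhesion and niche contact, a list of 24 tested genes, moved in both directions in the Dnmt3a members. Pecam1, an endothelial-type adhesion molecule, was among those that rose, and Esam and the tetraspanin genes Cd9 and Cd63 fell, with a median of -0.29. Pecam1 was 27.4, 25.9 and 25.8 CPM in MxCre and 60.9, 43.9, 38.4 and 48.6 in Dnmt3a (log2 fold change 0.84 ± 0.19, adjusted p = 0.0199). Cd9 was 116, 115 and 126 CPM in MxCre and 61.8, 90.7, 82.7 and 76.4 in Dnmt3a (-0.61 ± 0.15, adjusted p = 0.0358). Over all Dnmt3a genotypes Itgb3, Esam, Plxnc1, Cd9 and Cd63 fell.

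Gda, a guanine deaminase gene of maturing granulocytes, was 4.74, 21.3 and 28.4 CPM in MxCre members, 1.83, 1.91, 0.893 and 4.42 in Dnmt3a, 2.31, 3.35 and 0.513 in Tnfr1KO-labelled and 4.18, 3.56, 9.33 and 1.96 in Dnmt3a;Tnfr2KO (log2 fold change -3.17 ± 0.58, adjusted p = 0.00932). MxCre mice 2 and 3 were above all other mice, and MxCre mouse 1 lay within the range of Dnmt3a;Tnfr2KO. The other cells of the 14 libraries held 33.8 to 78.4 CPM. Anxa3, Rab44 and Atp8b4 rose in Dnmt3a by log2 values of 1.39, 1.497 and 1.49.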
